A study of Homo sapiens with 4 samples.

Results

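Heme and iron handling in the human breast cancer line MDA-MB-231, which is triple-negative and mesenchymal in type, was described from mRNA sequencing of cells given DMSO or 10 µM KH-3 for 24 h. DMSO is the solvent of the compound, and KH-3 is a small molecule that inhibits the RNA-binding protein HuR. Each condition had 2 libraries, made from total RNA of the unmodified line with a poly(A) mRNA kit. The genes were chosen by symbol for their roles in heme breakdown, heme synthesis and iron storage, uptake and sensing, and the choice was made with the authors' fold change and p-value of HMOX1 in view. They are HMOX1, HMOX2, BLVRA, BLVRB, ALAS1, FECH, FTH1, FTL, TFRC and IREB2. Of these 10 genes, 9 had rows in the deposited table, with 31 of its 43596 transcript rows and 9 of its 15113 gene symbols. HMOX2 had no row, so no level is given for it, and only its reference protein and promoter sequences were used.

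The value used was the authors' mean normalized read count of each transcript, a single mean over libraries. Which libraries enter this mean is not stated, and it has no SD. The paper also names a group given a lower dose of KH-3, and whether that group enters the mean is unknown. No value per library or per condition was used, so the sequencing depth is unknown and neither the spread between replicates nor the difference between KH-3 and DMSO could be examined. The columns of the authors' own comparison were not used. All values below are therefore levels of the experiment as a whole, not responses to KH-3. Levels of different genes were set side by side per kb of transcript length, as the sum over the rows of a gene of the mean normalized read count divided by the length in kb. In bulk RNA, fewer cells with a transcript and less RNA per cell cannot be told apart.

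Heme is built in a pathway that starts and ends in the mitochondrion, is used by many enzymes, and is broken down by heme oxygenase into biliverdin, carbon monoxide and free iron. Free iron is stored inside ferritin, a hollow shell of heavy and light chains, while transferrin receptor brings new iron into the cell. Iron regulatory proteins bind a hairpin in mRNA, the iron-responsive element, when iron is scarce, which blocks translation of ferritin and protects the mRNA of transferrin receptor from decay. HMOX1 is a classic inducible gene, held down by BACH1 and switched on by NRF2.

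The hairpins by which iron regulatory proteins recognise mRNA were located first, since they tie the ferritin genes to TFRC. Reference transcripts (GENCODE release 44, hg38) were searched for a C, a stem of 5 bases, the loop CAGTGN and 5 bases that pair with the stem, G-U pairs allowed. Only letters and pairing were searched, and no binding was measured. Of the 9 genes with rows, 3 had at least 1 match, namely FTH1, FTL and TFRC. Among all 15013 genes whose rows were found in that release, 277 had a match, or 1.85%. The matches are printed 5′ to 3′ with the 6 loop bases in capitals and with flanks of the hg38 reference.

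FTH1 at chr11:61967574-61967602, minus strand, in the 5′UTR: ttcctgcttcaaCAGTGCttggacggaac

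FTL at chr19:48965335-48965363, plus strand, in the 5′UTR: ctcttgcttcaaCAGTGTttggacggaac

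TFRC at chr3:196050979-196051007, minus strand, in the 3′UTR: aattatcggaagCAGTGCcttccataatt

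TFRC at chr3:196050575-196050603, minus strand, in the 3′UTR: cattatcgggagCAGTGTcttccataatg

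TFRC at chr3:196050510-196050538, minus strand, in the 3′UTR: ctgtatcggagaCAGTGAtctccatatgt

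TFRC at chr3:196050463-196050491, minus strand, in the 3′UTR: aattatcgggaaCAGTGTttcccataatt

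The windows of FTH1 and FTL had 26 of 29 bases in common and each lay ahead of the coding sequence. The 4 windows of TFRC lay within 545 bases of its 3′UTR and had 18 to 25 of 29 bases in common with each other, against 9 to 13 with the ferritin windows. By the reference sequence of each row of the table, the FTH1 match was in 3 of 4, the FTL match in its single row and the TFRC matches in 4 of 6. One of these rows in FTH1 (FTH1-008) and one in TFRC (TFRC-012) are retained-intron transcripts without a coding frame, and TFRC-012 is longer in the reference than in the table. Of the rows with a match, 2 of FTH1, 2 of TFRC and 0 of FTL had the same length in both. With Watson-Crick pairs alone, only TFRC among the 9 genes kept matches, 3 of its 4. No match in the other genes says only that these letters and pairs are not in the transcripts searched.

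**Figure D1:**
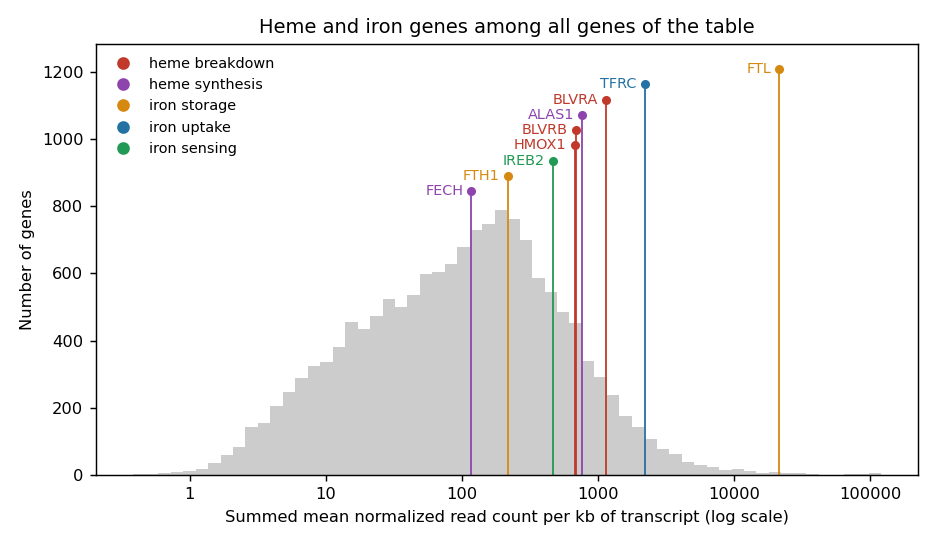
The grey bars count all 15113 genes by their summed mean normalized read count per kb of transcript (log scale), and the coloured lines mark the 9 heme and iron genes by role. FTL stands at 21424 per kb, 17 genes lie above it, and FECH at 117.0 per kb lies nearest the median of 108.3.

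Per kb of transcript, the 9 genes lay at or above the middle of all genes in the table. The median of all genes was 108.3 mean normalized reads per kb, with quartiles of 27.4 and 315.8. All 9 genes lay above that median, 7 of them at or above percentile 80, and their median percentile was 88.1. The place of FECH, the lowest, depended on which genes were counted, at percentile 51.7 of all genes, 42.3 of genes with a protein-coding row and 37.1 of genes with a summed count of at least 50. From high to low the order was FTL, TFRC, BLVRA, ALAS1, BLVRB, HMOX1, IREB2, FTH1 and FECH. Without values per library, whether neighbours in this order differ beyond their spread could not be examined. HMOX1 and BLVRB, at 671.2 and 689.2 per kb, were closest to each other. FTL, TFRC and BLVRA led in that order under each of the ways of summing rows that were tried, whereas the order of ALAS1, BLVRB, HMOX1 and IREB2 changed with them. Together the 31 rows held 0.301% of the summed mean normalized read count of the table, and FTL and TFRC made up 79.9% of that part.

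HMOX1, the inducible heme oxygenase that opens the heme ring, is a plus-strand gene at chr22:35380361-35394214 (hg38, as for all positions below). The table lists 1 row for it, the protein-coding transcript HMOX1-001 (ENST00000216117.8) of 1822 bases. Its authors' mean normalized read count was 1223, or 671.2 per kb, at percentile 87.8 of all genes and 6.20 times the median gene. Which libraries enter this mean is not stated in the sources used here, so the level in either condition may be far from it. HMOX2, the constitutive heme oxygenase on chromosome 16, encodes a protein of 316 residues against 288 for HMOX1 in the reference, with 136 identical residues over 272 aligned. No 50-base stretch of HMOX1-001 occurred in a reference transcript of another gene, so no exact stretch of that length was shared with HMOX2. Each of its stretches did occur in another reference transcript of HMOX1 itself. How reads of HMOX1 were divided among its transcripts therefore depends on the counting.

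Biliverdin, the product of heme oxygenase, is reduced to bilirubin by the enzyme encoded by BLVRA. BLVRB encodes another enzyme named for biliverdin reduction, which also acts on other substrates. BLVRA lies on chromosome 7 from 43758680 to 43807342 on the plus strand and was the third highest of the 9 genes, with 1142 per kb at percentile 93.5. Nearly all of its reads, 93.4%, were assigned to 1 protein-coding row, BLVRA-001, with a mean normalized read count of 1088. The remaining rows of BLVRA were a protein-coding row at 49.5 and a retained-intron row at 26.9.

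BLVRB lies on chromosome 19 from 40447765 to 40465764 on the minus strand and had 689.2 per kb over 4 rows, at percentile 88.1. Its reads were divided otherwise than those of BLVRA. The protein-coding row BLVRB-001 had a mean normalized read count of 200.5. Beside it, a transcript of the nonsense-mediated decay class, which is marked for degradation, had 190.7 and a retained-intron transcript, in which an intron is kept, had 138.7. The second protein-coding row, BLVRB-003, had 76.1. Rows that are not protein-coding thus held 54.4% of the BLVRB reads, the largest such share among the 9 genes. BLVRA stood 1.66 times above BLVRB per kb over all rows and 3.05 times above it over protein-coding rows alone. How far reads of BLVRB-001 and of the other rows can be told apart depends on the counting, since 2.80% of the 50-base stretches of BLVRB-001 occurred in no other reference transcript with an Ensembl number no higher than the highest in the table, against 52.3% of those of the decay-class row. Against all of GENCODE release 44, these shares were 0.0% and 52.3%.

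**Figure D2:**
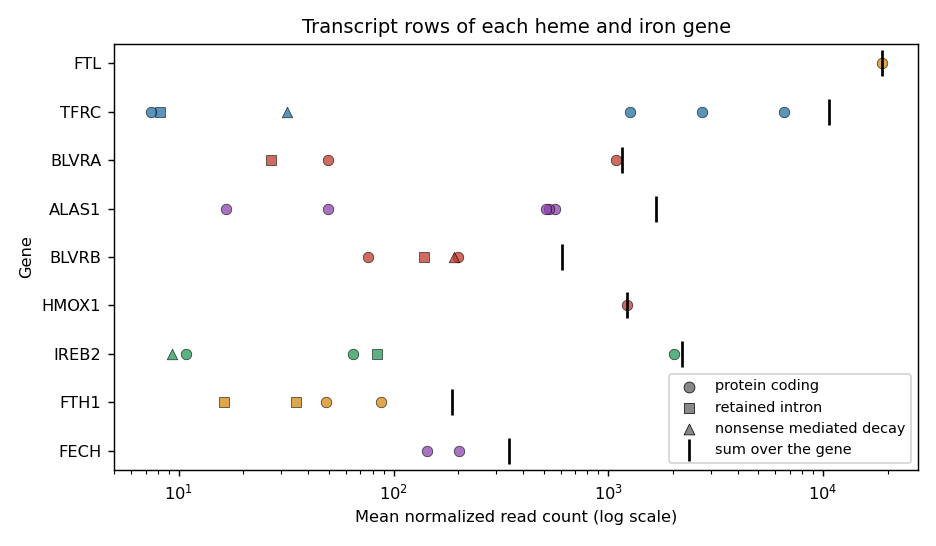
Each point is 1 transcript row of a gene at its authors' mean normalized read count (log scale), with the shape giving its class, and the black bar is the sum over the gene. HMOX1 and FTL have 1 row each, ALAS1 has 3 rows between 511.5 and 567.4, and the BLVRB rows lie between 76.1 and 200.5.

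ALAS1 encodes the housekeeping form of the first and rate-limiting enzyme of heme synthesis and lies on chromosome 3 from 52198086 to 52214327 on the plus strand. It had 764.7 per kb over 5 rows, at percentile 89.5, and all 5 rows were protein-coding. ALAS1 was the only gene of the 9 whose reads fell on 3 nearly equal rows. ALAS1-004 had a mean normalized read count of 567.4, ALAS1-002 had 532.3 and ALAS1-003 had 511.5, together 96.1% of the gene. Of their 50-base stretches, 2.11%, 2.70% and 2.13% were found in no other reference transcript. How many stretches separate these rows from each other was not counted. The even division among these rows therefore depends on the counting.

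FECH encodes ferrochelatase, the last enzyme of the pathway, which inserts iron into protoporphyrin. The gene lies on chromosome 18 from 57544377 to 57586732 on the minus strand. It was the lowest of the 9 genes, with 117.0 per kb over 2 protein-coding rows, 1.08 times the median gene and at percentile 51.7. FECH-002, of 2526 bases, had a mean normalized read count of 201.2, and FECH-001, of 3853 bases, had 143.8. Per kb, ALAS1 was listed at 6.54 times the level of FECH, and at 3.02 times when each gene was given by its highest row alone.

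Per kb, the ferritin chains lay further apart than BLVRA and BLVRB or ALAS1 and FECH. Over all rows, the widest gap among the genes described was that of FTL over FECH, at 183.2 times. FTL, the light chain, which favours the deposition of iron in the shell, lies on chromosome 19 from 48965309 to 48966879 on the plus strand. Its single row FTL-001, of 878 bases, had a mean normalized read count of 18810, or 21424 per kb. That is 197.8 times the median gene, and 17 of 15113 genes stood higher.

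FTH1, the heavy chain, carries the ferroxidase site that oxidises iron before storage. The gene lies on chromosome 11 from 61959718 to 61967634 on the minus strand. It had 216.8 per kb over 4 rows, at percentile 66.4. The full-length protein-coding row FTH1-001 had a mean normalized read count of 87.3 and the short protein-coding row FTH1-011 had 48.4. The retained-intron rows FTH1-008 and FTH1-009 had 35.2 and 16.3, or 27.5% of the gene between them. FTL was thus listed 98.8 times higher than FTH1 per kb, and FTL-001 was listed 301.7 times higher than FTH1-001. The encoded chains have 183 residues in FTH1 and 175 in FTL in the reference, 55.4% of them identical over 175 aligned.

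More of the leading row of FTH1 than of any other of the 9 genes was held by transcripts of other genes. For FTH1-001, 41.3% of its 50-base stretches occurred in a reference transcript of another gene. The share was 18.5% for FTL-001, 0.127% for IREB2-001 and 0 for the leading row of each of the other 6 genes. Both ferritin genes have many processed pseudogenes, which are copies of the mature mRNA. Counting all transcripts whose Ensembl number is no higher than the highest in the table, 22.4% of the FTH1-001 stretches were held by more than 10 transcripts, with up to 21 for a stretch. A further 24.4% were found in no other transcript. In longer stretches the share held by more than 10 transcripts was lower, at 13.1% for 75 bases and 5.43% for 100. Which length applies to the reads is unknown, since the read length is not given in the sources used here. STAR in its default setting, which the authors state they used, discards reads that map to more than 10 places. The authors state that reads were mapped against annotated transcripts, where each transcript of a gene counts as its own place. In the genome, transcripts of 1 gene would share 1 place. For FTL-001 no stretch was held by more than 3 transcripts. Over 20 stretches spread along the leading row of each gene, 4.09% of all genes had a median number of holders at or above the 7.5 of FTH1, and 10.4% did when all transcripts of release 44 were counted.

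Ferritin pseudogenes took few reads in the table. Rows were listed for 1 FTH1 pseudogene, FTH1P23 with a mean normalized read count of 10.7, and 1 FTL pseudogene, FTLP3 with 8.34. Together they made up 0.10% of the ferritin and ferritin pseudogene reads. FTH1P23 held 5.41% of the reads of FTH1 and itself. The part of shared sequence in the low FTH1 value was not tested, since reads that were not kept cannot be counted from this table. The FTH1 level is to be read as uncertain for this reason.

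**Figure D3:**
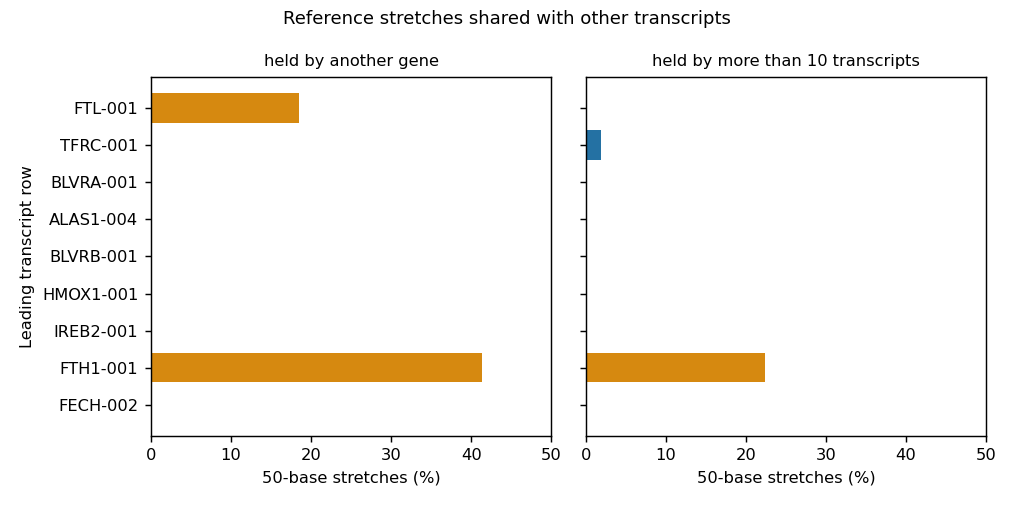
Bars give the percentage of 50-base stretches of the leading row of each gene that a reference transcript of another gene holds (left) and that more than 10 reference transcripts hold (right), among transcripts with an Ensembl number no higher than the highest in the table. FTH1-001 reaches 41.3% on the left and 22.4% on the right, and FTL-001 reaches 18.5% on the left alone.

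TFRC, the transferrin receptor that takes up iron-loaded transferrin, lies on chromosome 3 from 196012511 to 196082153 on the minus strand. It was second of the 9 genes with 2192 per kb, 20.2 times the median gene and at percentile 97.3. Its 6 rows had mean normalized read counts of 6606, 2747, 1258, 31.8, 8.21 and 7.38. The first 3, TFRC-001, TFRC-002 and TFRC-003, are protein-coding, hold the 4 loops printed above in the reference and made up 99.6% of the gene. Of their 50-base stretches, 0.0%, 5.2% and 0.965% occurred in no other reference transcript numbered no higher than the highest in the table. The division among these rows therefore depends on the counting. None of the 50-base stretches of TFRC-001 occurred in another gene, and 1.87% were held by more than 10 of the transcripts numbered no higher than the highest in the table, all of TFRC itself. With all transcripts of release 44 counted, 99.9% were.

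IREB2 encodes iron regulatory protein 2, which binds the hairpins printed above and is degraded when iron is plentiful. The gene lies on chromosome 15 from 78437431 to 78501453 on the plus strand. It had 463.0 per kb over 5 rows, at percentile 82.1, and TFRC stood 4.73 times above it per kb. The protein-coding row IREB2-001, of 6354 bases, had a mean normalized read count of 2027, or 92.4% of the gene. The next rows were a retained-intron transcript at 83.4 and a protein-coding one at 64.4.

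The other genes of these pathways were taken from 6 lists, with 47 genes reported here, 40 of them with rows. Their median level was 328.8 per kb against 108.3 for all genes, and 30 of the 40 stood above the median gene. The median gene is that of all genes, 12120 of which had a protein-coding row. Among those 12120, FECH stood at percentile 42.3, so genes little above 108.3 per kb fell below their middle. FTL stood above all 40 and TFRC above all but PCBP1, while 26 of them were higher than FTH1 and 29 were higher than FECH. HMOX1 had 6 of the 40 above it.

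In heme synthesis, 9 of the 10 genes reported had rows. TMEM14C, a mitochondrial membrane protein needed for porphyrin transport, was highest at 1008 per kb, followed by UROD, uroporphyrinogen decarboxylase, at 789.8 and CLPX, a mitochondrial unfoldase that acts on ALAS enzymes, at 612.9. PPOX, protoporphyrinogen oxidase, was lowest of these at 55.9. ALAS2, the erythroid counterpart of ALAS1, had no row. FECH at 117.0 was therefore above PPOX and below the other 8 of these genes.

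Among heme transporters and carriers all 7 genes had rows, and 3 stood above the median gene. PGRMC1, a heme-binding membrane protein, had 855.5 per kb, SLC48A1, which moves heme out of lysosomes, had 160.6 and PGRMC2 had 109.6. FLVCR2 was lowest at 27.2. Of the partners and regulators of heme breakdown, all 7 had rows and all 7 stood above the median gene. NFE2L2, which encodes NRF2, had 754.2 per kb, its inhibitor KEAP1 had 634.0 and the small MAF protein gene MAFG had 380.3. BACH1, the heme-sensing repressor of HMOX1, was lowest at 144.3.

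Iron uptake and export was the list with most genes without rows, 5 of 13, namely TF, TFR2, HAMP, CP and HEPH, several of which are known as liver genes. SLC39A14, a metal importer, was highest at 489.5 per kb, and the mitochondrial iron importers SLC25A37 and SLC25A28 had 436.7 and 395.9. SLC40A1, which encodes ferroportin, the iron exporter, was lowest at 20.6 per kb, below the lower quartile of all genes. TFRC at 2192 stood above each listed gene of this group. In iron sensing and ferritin handling, 5 of 6 genes had rows and all 5 stood above the median gene. PCBP1, an iron chaperone that loads ferritin, had 2485 per kb, ACO1, which encodes iron regulatory protein 1, had 1166 and PCBP2 had 649.8. FBXL5, which directs iron regulatory proteins to degradation, was lowest at 351.7, and FTMT, mitochondrial ferritin, had no row. ACO1 was thus listed above IREB2, its partner in the same system. The 4 genes of iron-sulfur assembly that are reported ranged from NFS1 at 72.1 to GLRX5 at 497.0, with ISCU at 405.7 and HSCB at 85.6.

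**Figure D4:**
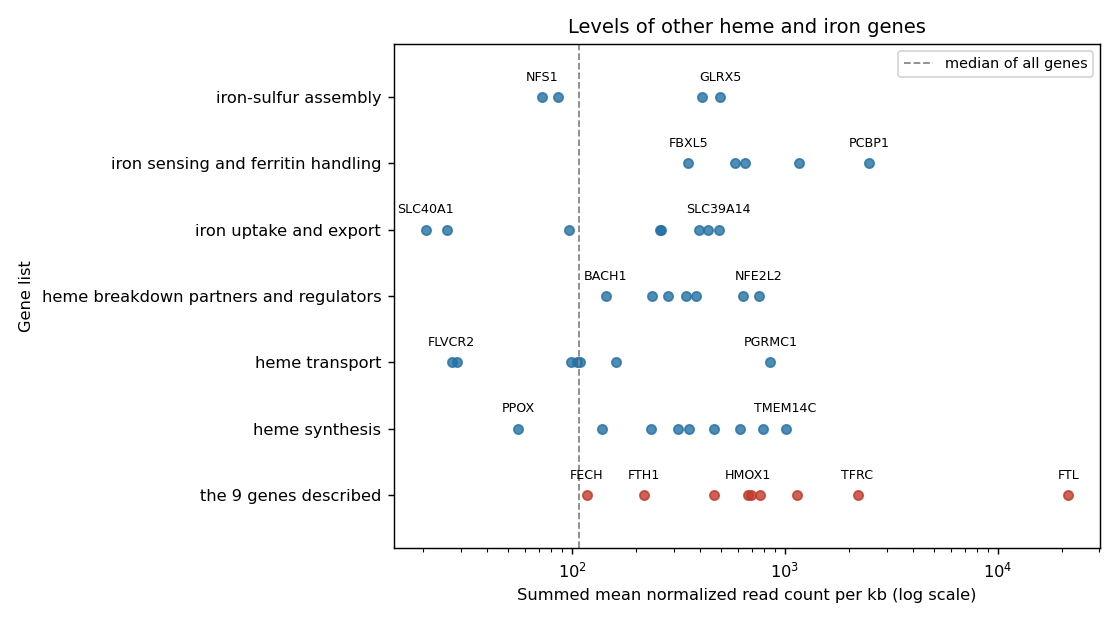
Each point is 1 gene at its summed mean normalized read count per kb (log scale), in the 9 genes described and in 6 lists of other heme and iron genes, with the highest and lowest gene of each list and HMOX1, FTH1 and TFRC named, and the median of all genes dashed. FTL at 21424 lies above every other gene plotted, and SLC40A1 at 20.6 lies lowest.

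The labelled cell line was checked by its markers. All 6 mesenchymal markers had rows, from CD44 at 427.4 to VIM at 10135 per kb. Of 7 luminal or epithelial markers, KRT18, KRT19, KRT8 and EPCAM had rows, from 43.3 to 5378 per kb, while the hormone receptor genes ESR1 and PGR and the cadherin gene CDH1 had none. All 6 erythroid markers had no row. Of 5 macrophage markers, CD68 had 1264 per kb and CSF1R had 6.46, and PTPRC, CD163 and TYROBP had no row. The summed level per kb was 19572 for the mesenchymal, 8232 for the epithelial and 1270 for the macrophage list. These lists differ in length, and their genes overlap in level. KRT18 stood above every mesenchymal marker but VIM, and CD68 stood above PLAUR and CD44.

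Promoters from RefSeq (GRCh38.p14), from 250 bases before to 50 after each start, were found for 8 of the 10 genes, as 10 promoters. They were searched on both strands for TGACNNNGC, the core of the element that NRF2 binds together with small MAF proteins. A match was found in 1 of the 10, that of FECH, and in 13.3% of all 35116 promoters. The looser TGANNNNGC, which includes the first motif, was found in the same promoter alone, and in 41.8% of all promoters. No promoter was found for HMOX1 or FTH1, so neither was searched for the motif. A match is a description of letters, and enhancers outside these windows were not searched.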

How the data were processed

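mRNA libraries of MDA-MB-231 cells (DMSO or 10 µM KH-3, 24 h, 2 libraries each) were sequenced on an Illumina HiSeq system. The authors mapped the reads with STAR to GENCODE v24 transcripts (hg38), estimated reads per transcript with eXpress and normalized them with DESeq2. Tool versions are not given in the sources used here. The deposited signal is their mean normalized read count per transcript, pooled over libraries and listed down to 7.34. The 3 columns of the authors' own comparison, which hold their log2 fold change, p-value and q-value of KH-3 against DMSO, were not used, so no test was run. Depth per library and replicate error are unknown.

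Rows of a gene symbol were summed, as reads and as reads per kb of the deposited length. Named genes are the 10 members, in each pathway list the 3 highest and the lowest gene and those without rows, and up to 3 ferritin pseudogenes. Of the pathway lists, 2 genes are not reported here and were left out of all counts. Members and lists were chosen with earlier results of these data known. Shared 50-base stretches, loops and positions come from GENCODE release 44, another release than the authors', which holds all 31 rows, 19 with equal length. Sharing was counted against its transcripts with an Ensembl number no higher than the highest in the table, and as an alternative against all of them. Proteins were translated from its coding sequences and aligned globally with BLOSUM62. Sums, percentiles, loop search and motif search were tested on simulated data. Software was Biopython 1.88, matplotlib 3.10.9, pandas 2.3.3 and numpy 2.4.6 under Python 3.11.15 (random seed 1).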

Additional observations from a re-analysis of the deposited data

How the results depend on the processing

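No paired analysis was possible because the table holds 1 pooled mean per transcript, and for the same reason no library could be left out. A level or ratio was taken as moved beyond 1.5 times, and a share or percentile beyond 10 points. Of 97 alternative values, 72 stayed within these limits and 25 moved. FTL, TFRC and BLVRA were the highest in that order under every summing and length rule tried. With the highest row alone, FTL stood 301.7 times above FTH1, ALAS1 3.02 times above FECH and BLVRA 4.42 times above BLVRB, and FECH came above FTH1. With protein-coding rows only, BLVRA stood 3.05 times above BLVRB. With Watson-Crick pairs only, 1 gene kept loops. The motif TGANNNNGC was in 41.8% of promoters. In stretches of 100 bases, a length chosen after the data were seen, 20.7% of FTH1-001 was held by another gene, with the older transcripts and with all of release 44. Among genes with a summed count of at least 50, FTH1 fell to percentile 56.2 and FECH to 37.1. The lowest row listed had 7.34 mean normalized reads, and the rule for listing is not known here. A gene without a row may therefore still be expressed. The read length is not given in the sources used here.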
